A study of Mus with 21 samples.

Results

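Shc3, Hipk2, Adcy1 and Mef2c are 4 genes that were picked as neuronal genes varying strongly between the libraries of one mouse brain series, and their rows were taken by gene name from the 55335 rows of the deposited count table. Because that choice rested on these same libraries, their levels, fold changes and correlations are given here as descriptions without a test. The libraries came from whole brains of female embryos at E17.5, on a C57BL/6J background, with 1 embryo per library. The 5 *WT* embryos are labelled Wapl +/+; Nipbl +/+, the 3 *Nipbl+/−* embryos Wapl +/+; Nipbl +/delta, the 7 *Wapl Δ/+* embryos Wapl delta/+ or Wapl +/delta with Nipbl +/+, and the 6 double heterozygotes Wapl delta/+ or Wapl +/delta with Nipbl +/delta. The *Wapl* Δ allele lacks the promoter and the first exons, removed in earlier generations with E2a-Cre, and the *Nipbl* mutant allele came from a floxed allele recombined in the germ line of sires carrying Stra8-icre. The labels do not say whether an embryo carried the Stra8-icre transgene itself.

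NIPBL promotes the loading of cohesin onto chromatin, and WAPL promotes its release, so the alleles reduce opposing steps of the same cycle. Cohesin holds chromatin in loops, and losing a copy of *Nipbl* is known to cause small changes in the expression of many genes in the brain. The 4 genes act at different steps between the neuronal surface and the nucleus. Shc3 is an adaptor protein that binds activated Trk neurotrophin receptors and passes the signal to Grb2 and Ras. Adcy1 is a membrane adenylyl cyclase that makes cAMP when calcium and calmodulin rise, and it is known for its part in the wiring of the somatosensory cortex. Hipk2 is a nuclear serine/threonine kinase that phosphorylates transcription regulators, among them p53 and CtBP. Mef2c is a MADS-box transcription factor that acts in the differentiation of cortical neurons and in the activity-dependent control of synapse number.

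Levels are read counts scaled to library size and given as CPM, with trimmed mean of M values (TMM) normalization, from total counts of 25682566 to 35818767 per library (median 31830396). The target genes followed the labels in every library. *Wapl* stood at 39.6% to 51.9% of the *WT* mean in the 13 libraries labelled as carrying the Δ allele and at 88.5% to 108% in the other 8, and *Nipbl* at 51.0% to 59.4% in the 9 mutant libraries and at 90.3% to 111% in the other 12. The transcript *mt-Nd3* of the mitochondrial genome divided the libraries, with at most 6 counts in 12 of them (the low set) and at least 52 counts in 9 (the high set). The high set held replicates 4 and 5 of *WT*, 3 to 7 of *Wapl Δ/+* and 5 and 6 of the double heterozygotes, but no *Nipbl+/−* library. Among the carriers of the *Wapl* allele the sets followed the order in which the labels write the alleles, so the set, that order and whatever they stand for cannot be told apart. Nothing in the labels says whether embryos shared a litter, so the spread between libraries may also hold differences between litters.

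**Figure D1:**
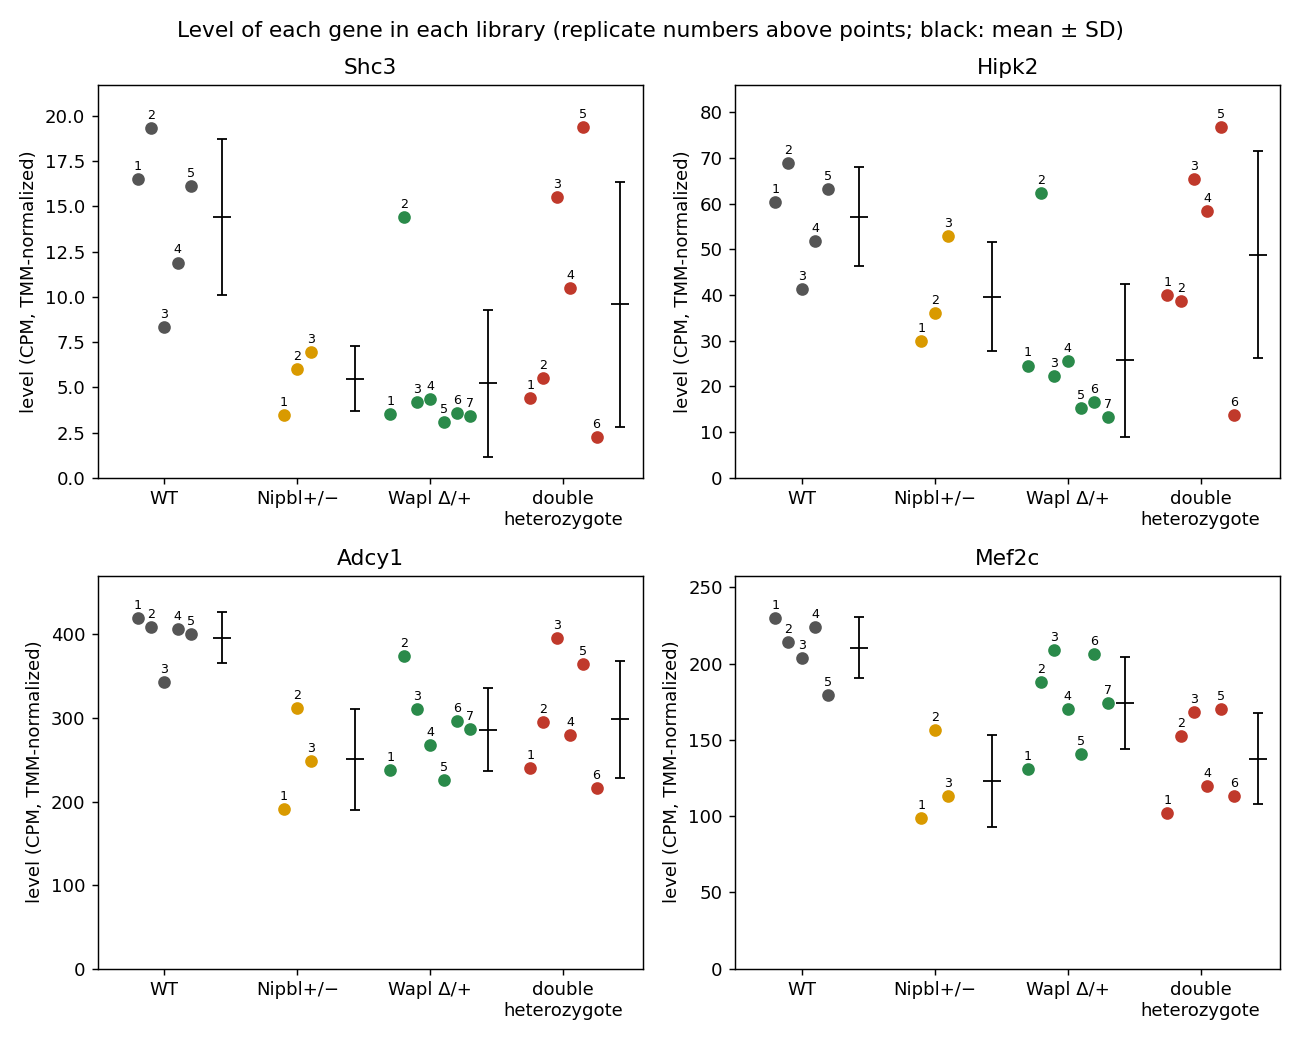
Level (CPM, vertical axis from 0) of Shc3, Hipk2, Adcy1 and Mef2c in the 5 WT, 3 Nipbl+/−, 7 Wapl Δ/+ and 6 double-heterozygote libraries, with replicate numbers above the points and the group mean ± SD in black beside them. Wapl Δ/+ replicate 2 lies at 14.4 CPM for Shc3 and 62.3 CPM for Hipk2, far above the other 6 libraries of its group, and the double heterozygotes cover 2.24 to 19.4 CPM and 13.8 to 76.8 CPM for the same genes.

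Shc3 (ENSMUSG00000021448.8) lies on chromosome 13 of GRCm38 from 51423389 to 51569451. In *WT* brains its level was 16.5, 19.3, 8.36, 11.9 and 16.1 CPM in replicates 1 to 5 (14.4 ± 4.31, SD, n = 5). The *Nipbl+/−* libraries had 3.47, 6.02 and 6.94 CPM (5.48 ± 1.79, SD, n = 3), each below every *WT* library. Replicate 3 was the lowest of the *WT* libraries, and it stood only a little above the highest *Nipbl+/−* library. Levels in *Wapl Δ/+* replicates 1 to 7 were 3.55, 14.4, 4.17, 4.36, 3.09, 3.59 and 3.42 CPM (5.22 ± 4.06, SD, n = 7). Here 6 of the 7 libraries lay far below *WT*, while replicate 2 lay within the *WT* range. The double heterozygotes had 4.41, 5.51, 15.5, 10.5, 19.4 and 2.24 CPM (9.59 ± 6.77, SD, n = 6), so this group held both the highest and the lowest Shc3 level of all 21 libraries.

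Hipk2 (ENSMUSG00000061436.15) lies on chromosome 6 from 38687512 to 38876331. Its level was 60.4, 69.0, 41.4, 51.9 and 63.3 CPM in the *WT* libraries (57.2 ± 10.8, SD, n = 5). In *Nipbl+/−* brains it was 29.9, 36.1 and 53.0 CPM (39.7 ± 11.9, SD, n = 3), and replicate 3 overlapped the *WT* range. In *Wapl Δ/+* brains it was 24.6, 62.3, 22.2, 25.5, 15.4, 16.7 and 13.2 CPM (25.7 ± 16.8, SD, n = 7). Replicate 2 again stood alone, within the *WT* range, and the other 6 libraries lay below every *WT* and every *Nipbl+/−* library. The double heterozygotes had 39.9, 38.7, 65.4, 58.5, 76.8 and 13.8 CPM (48.9 ± 22.6, SD, n = 6), with replicate 5 above and replicate 6 far below the whole *WT* range.

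Adcy1 (ENSMUSG00000020431.5) lies on chromosome 11 from 7063433 to 7178506. The *WT* libraries had 419.9, 409, 343, 407 and 401 CPM (396 ± 30.4, SD, n = 5). The *Nipbl+/−* libraries had 191, 312 and 248 CPM (251 ± 60.6, SD, n = 3), all below *WT*. The *Wapl Δ/+* libraries had 238, 375, 311, 267, 226, 296 and 287 CPM (286 ± 49.7, SD, n = 7), and replicate 2 was the only one to reach the *WT* range. In the double heterozygotes the level was 239.7, 295, 396, 279, 365 and 216 CPM (298 ± 69.9, SD, n = 6). Replicates 3 and 5 of this group lay within the *WT* range, and the other 4 lay below it.

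Mef2c (ENSMUSG00000005583.16) lies on chromosome 13 from 83504017 to 83667079. Levels were 230.1, 214, 204, 224 and 179 CPM in *WT* brains (210.3 ± 19.98, SD, n = 5) and 99.1, 157 and 113 CPM in *Nipbl+/−* brains (123 ± 30.0, SD, n = 3). As for Shc3 and Adcy1, no *Nipbl+/−* library overlapped *WT*. The *Wapl Δ/+* libraries had 131, 188, 209, 170.4, 141, 207 and 174 CPM (174 ± 30.2, SD, n = 7), so 3 of them, replicates 2, 3 and 6, lay within the *WT* range. The double heterozygotes had 102, 153, 168, 119.9, 170.4 and 113 CPM (138 ± 29.7, SD, n = 6). Mef2c was thus the only one of the 4 genes for which every double heterozygote lay below every *WT* library, including replicates 3 and 5, in which Shc3 and Hipk2 were above the *WT* mean.

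Relative to *WT*, the mean level of Shc3 was 37.9% in *Nipbl+/−*, 36.2% in *Wapl Δ/+* and 66.4% in double-heterozygote brains. Hipk2 stood at 69.4%, 45.0% and 85.4% in the same groups. Both therefore had the order *Wapl Δ/+*, *Nipbl+/−*, double heterozygote and *WT* from lowest to highest, and for Shc3 the means of the single heterozygotes differed by far less than the spread within either group. Adcy1 stood at 63.3%, 72.2% and 75.4%, and Mef2c at 58.5%, 82.9% and 65.5%. For these genes the *Nipbl+/−* group was the lowest. The double heterozygotes lay next to the *Wapl Δ/+* group for Adcy1 but next to the *Nipbl+/−* group for Mef2c. In all these orders the libraries of neighbouring groups overlapped. Such overlap does not show that neighbours were alike, and their differences were not tested. In whole brain, fewer cells of a type and less RNA per cell cannot be told apart.

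Fold changes were fitted with edgeR on the libraries of each pair of groups and are given on the log2 scale with their standard errors. In *Nipbl+/−* against *WT* brains they were −1.41 (SE 0.223) for Shc3, −0.54 (SE 0.149) for Hipk2, −0.66 (SE 0.103) for Adcy1 and −0.78 (SE 0.105) for Mef2c. The median of the 4 was −0.72, beside −0.01 over the 30552 genes fitted. In this comparison 3 of the 4 genes had every mutant library below every *WT* library, as did 6.90% of all genes, and nothing is read from that count because the choice of genes used these libraries. The libraries with low *mt-Nd3* alone gave −1.43, −0.53, −0.64 and −0.82 for the genes in the same order. Leaving out single libraries moved the fold changes to between −1.59 and −1.16 for Shc3, −0.78 and −0.37 for Hipk2, −0.86 and −0.50 for Adcy1, and −0.995 and −0.64 for Mef2c.

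In *Wapl Δ/+* against *WT* brains the log2 fold changes were −1.45 (SE 0.291) for Shc3 and −1.14 (SE 0.255) for Hipk2, but −0.47 (SE 0.0857) for Adcy1 and −0.27 (SE 0.0910) for Mef2c. The median was −0.81, beside 0.00 over all genes. None of the 4 genes separated the groups completely, which 0.471% of all genes did in the lower direction. Replicate 2 decided much of this picture. Without it the changes were −1.95 for Shc3, −1.53 for Hipk2 and −0.54 for Adcy1, and the remaining 6 libraries had no overlap with *WT* for these 3 genes. Nothing is read from that separation, because replicate 2 was singled out on the levels of these same genes. The share of all genes without overlap was not computed for the 6 libraries. Within the high *mt-Nd3* set (5 against 2 libraries) the changes were −1.90, −1.62, −0.54 and −0.16 for Shc3, Hipk2, Adcy1 and Mef2c. Within the low set, which holds only replicates 1 and 2 of the mutant group, they were −0.71, −0.39, −0.35 and −0.44.

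In double-heterozygote against *WT* brains the fold changes were −0.56 (SE 0.347) for Shc3, −0.21 (SE 0.254) for Hipk2, −0.40 (SE 0.115) for Adcy1 and −0.60 (SE 0.110) for Mef2c. Their median was −0.48, beside 0.00 over all genes. Mef2c was the 1 gene of the 4 without overlap, where 2.29% of all genes had none in this direction. The values for Shc3 and Hipk2 were smaller than 2 standard errors and turned on replicates 5 and 6. Without replicate 6 they became −0.37 and −0.03, and without replicate 5 they became −0.90 and −0.39. Mef2c stayed between −0.67 and −0.53 whichever library was left out, and Adcy1 between −0.50 and −0.32. The values in the low and the high *mt-Nd3* set were −0.70 and −0.33 for Shc3, −0.16 and −0.32 for Hipk2, −0.36 and −0.46 for Adcy1, and −0.66 and −0.49 for Mef2c.

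The comparison of double with single heterozygotes asks whether the second mutation changes the level set by the first. Against *Nipbl+/−* brains the double heterozygotes had log2 differences of 0.83 (SE 0.487), 0.31 (SE 0.340), 0.26 (SE 0.171) and 0.17 (SE 0.162) for Shc3, Hipk2, Adcy1 and Mef2c. All 4 values were positive and the groups overlapped for each gene, where 1.29% of all genes had no overlap in the lower direction and 0.897% in the higher. Against *Wapl Δ/+* brains the differences were 0.89 (SE 0.410) for Shc3 and 0.93 (SE 0.328) for Hipk2, 0.07 (SE 0.124) for Adcy1 and −0.33 (SE 0.122) for Mef2c, again with overlap for every gene (0.717% and 0.177% of all genes had none). Leaving out single libraries gave 0.49 to 1.03, 0.13 to 0.57, 0.09 to 0.45 and 0.03 to 0.39 against *Nipbl+/−*, and 0.56 to 1.38, 0.76 to 1.32, −0.03 to 0.14 and −0.40 to −0.26 against *Wapl Δ/+*. The sets of libraries disagreed here. The low *mt-Nd3* set gave 0.01 for Shc3 and 0.22 for Hipk2, and the high set, with 2 double heterozygotes at opposite extremes, gave 1.56 and 1.30. Adcy1 differed by −0.02 among low-set libraries and by 0.07 among high-set libraries.

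The interaction term is the part of the double heterozygote's log2 change that is left after the changes of both single heterozygotes are added. It was 2.26 (SE 0.6254) for Shc3, 1.43 (SE 0.488) for Hipk2, 0.70 (SE 0.201) for Adcy1 and 0.41 (SE 0.198) for Mef2c. In every case the double heterozygotes lay above the sum of the single changes. Across all genes the edgeR quasi-likelihood test called 0 interactions at an adjusted *P* below 0.10 (4221 genes had an unadjusted *P* below 0.05), and DESeq2 called 793. The terms in the low *mt-Nd3* set were 1.44, 0.75, 0.63 and 0.59.

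**Figure D2:**
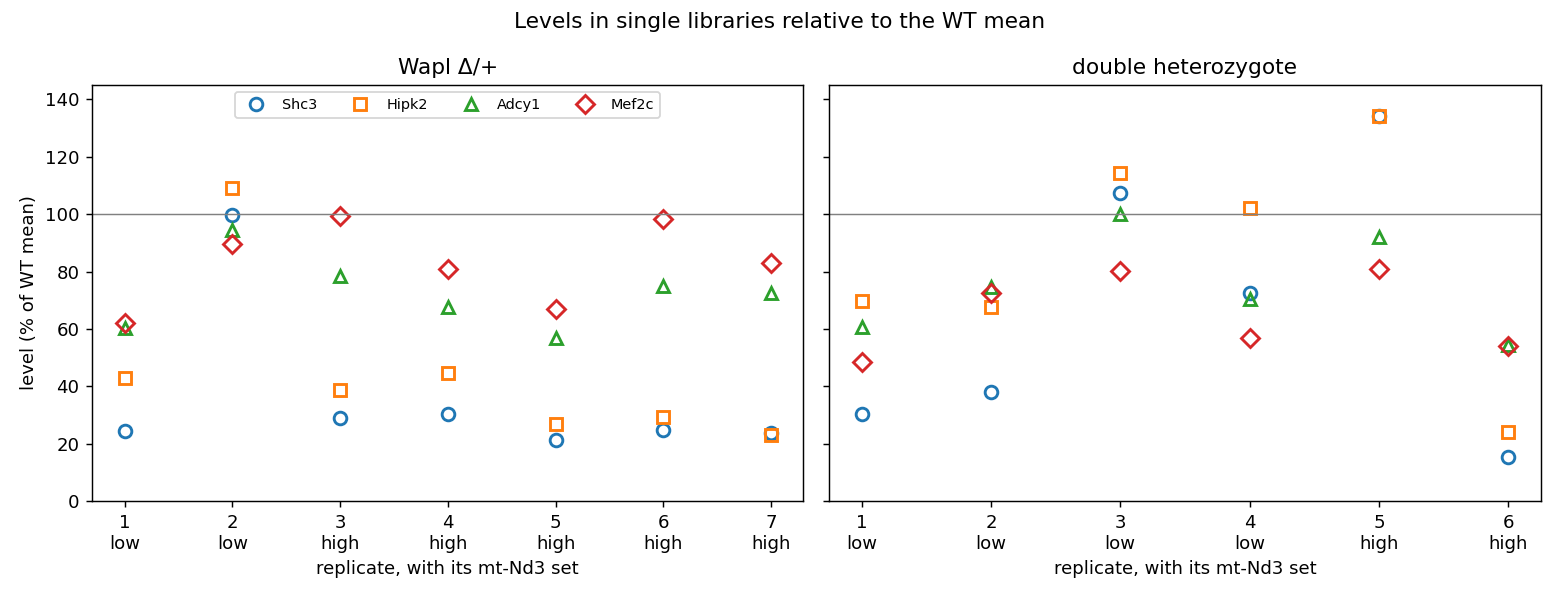
Level of each gene as a percentage of the WT mean (vertical axis, grey line at 100) in the 7 Wapl Δ/+ and the 6 double-heterozygote libraries, with the replicate number and its mt-Nd3 set on the horizontal axis. Shc3 and Hipk2 move together from library to library, at 134% of WT each in double-heterozygote replicate 5 and at 15.5% and 24.2% in replicate 6, while Mef2c stays between 48.6% and 81.0% in that group.

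Single libraries of the same genotype label differed widely, most of all for Shc3 and Hipk2. Double-heterozygote replicate 5 had 134% of the *WT* mean for both Shc3 and Hipk2, 92.1% for Adcy1 and 81.0% for Mef2c. Replicate 6 of the same group, which also belongs to the high *mt-Nd3* set and is labelled with the same genotype, had 15.5%, 24.2%, 54.6% and 53.9%. The ranking of the genes thus turned over between these brains, with Shc3 and Hipk2 above the other 2 genes relative to *WT* in one and below them in the other. *Wapl Δ/+* replicate 2 had 99.7%, 109%, 94.6% and 89.4%, and replicate 1, written with the same allele order and in the same set, had 24.6%, 43.0%, 60.2% and 62.1%. The levels under each order of the alleles in the labels overlapped for every gene, but only 2 *Wapl Δ/+* libraries were written delta first. For Hipk2 the overlap in that group was small, with 24.6 to 62.3 CPM for delta first and 13.2 to 25.5 CPM for delta second. Shc3 ran from 3.55 to 14.4 CPM in *Wapl Δ/+* libraries written delta first and from 3.09 to 4.36 CPM in those written delta second, and from 4.41 to 15.5 CPM and from 2.24 to 19.4 CPM in the double heterozygotes.

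The highest library exceeded the lowest by 8.64-fold for Shc3, 5.80-fold for Hipk2, 2.32-fold for Mef2c and 2.20-fold for Adcy1. Among the 13414 genes whose mean reached 5 CPM, the SD of log2 CPM over the 21 libraries was 0.999 for Shc3 (rank 11), 0.824 for Hipk2 (rank 14), 0.381 for Mef2c (rank 86) and 0.341 for Adcy1 (rank 118), where the median gene had 0.0925. Shc3 and Hipk2 thus stood near the top, below rows such as AY036118, the muscle genes Myh8 and Acta1, and Hoxa5, while many more genes varied as much as Mef2c and Adcy1. The genotype groups accounted for 41.1%, 41.7%, 47.0% and 58.1% of the variance of Shc3, Hipk2, Adcy1 and Mef2c, and for 23.1% in the median gene. The rest lay between embryos of the same genotype label. Ranked on that remainder alone, the genes were 13th, 16th, 133rd and 141st. *WT* brains varied too, with a 2.31-fold range for Shc3 and 1.67-fold for Hipk2, but only 1.22-fold for Adcy1 and 1.28-fold for Mef2c.

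**Figure D3:**
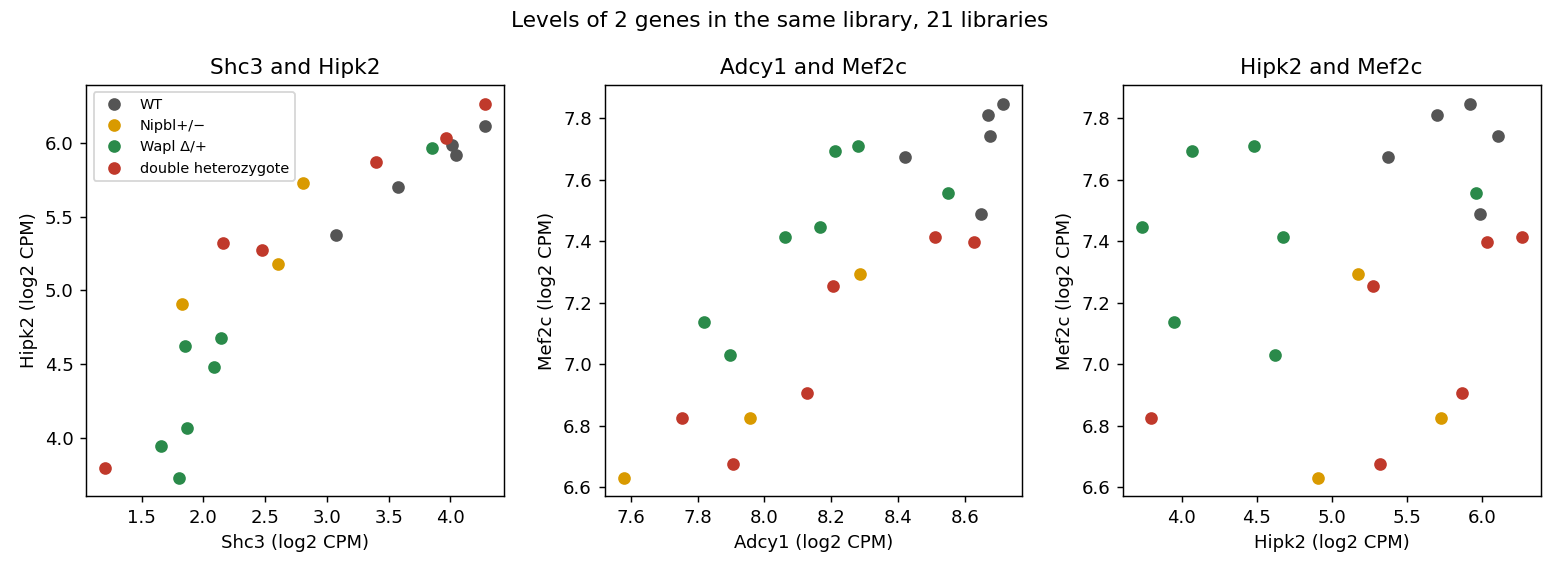
Log2 CPM of pairs of genes in the same library (each point 1 of 21 libraries, coloured by genotype group). Shc3 and Hipk2 fall along a line (r = 0.921), Adcy1 and Mef2c along a looser one (r = 0.83), and Hipk2 and Mef2c scatter (r = 0.203), with most Wapl Δ/+ libraries low in Hipk2 but not in Mef2c.

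The correlations between the genes ran from strong to weak. Over the 21 libraries the correlation of log2 CPM was *r* = 0.921 (Spearman rho 0.958) between Shc3 and Hipk2, 0.857 (rho 0.839) between Shc3 and Adcy1 and 0.83 (rho 0.834) between Adcy1 and Mef2c. Hipk2 and Adcy1 0.654 (rho 0.684), Shc3 and Mef2c 0.494 (rho 0.481), and Hipk2 and Mef2c 0.203 (rho 0.256). Without the 2 libraries farthest from the median of the first gene, the 6 values lay between 0.145 and 0.908, in the same order. After the group means were subtracted, the correlations were 0.930 for Shc3 and Hipk2, 0.847 for Adcy1 and Mef2c and 0.323 for Hipk2 and Mef2c. They were 0.930, 0.928 and 0.512 within the low *mt-Nd3* set (12 libraries) and 0.982, 0.748 and 0.392 within the high set (9 libraries). These values are descriptions with no *P*, since the genes were chosen on the same libraries and share each library's preparation and depth.

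Technical and dissection measures were set beside the levels. The total count of a library had *r* = 0.328, 0.294, 0.462 and 0.452 with Shc3, Hipk2, Adcy1 and Mef2c. Among the 3 most abundant of the top-ranking variable rows, Gm42418, AY036118 and CT010467.1, which are known to collect reads of ribosomal RNA, the summed level ran from 991 to 18920 CPM and had *r* = 0.174, 0.200, 0.119 and −0.02. Hoxa5 and Hoxb5, which are expressed in hindbrain and spinal cord, ran from 1.61 to 49.8 CPM together and had *r* = 0.0941, −0.04, 0.279 and 0.284. The *Nipbl+/−* group, with only 3 libraries, held the highest level of the ribosomal rows (3665 to 18920 CPM) and the lowest of the Hox genes (1.61 to 40.9 CPM), where no library of the other groups had less than 20.97 CPM of the Hox genes. Mitochondrial transcripts had *r* = 0.299, 0.147, 0.560 and 0.578. The values for Adcy1 and Mef2c exceed those between Mef2c and Shc3 or Hipk2. These measures were chosen after their values were seen, and their part in the levels of the 4 genes was not tested.

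For each gene, the genes with the most similar profile over the 21 libraries were listed from those whose mean reached 5 CPM. Shc3 was closest to Abl2 (*r* = 0.981), a tyrosine kinase that acts on the actin cytoskeleton, to the cytolinker Dst (0.978), to the bicarbonate transporter Slc4a8 (0.976), to Acaca (0.974), the enzyme of the first committed step of fatty acid synthesis, and to Sptan1 (0.972), the non-erythroid alpha spectrin. Hipk2 was closest to the activin receptor Acvr2b (0.991), to the guanine nucleotide exchange factor Trio (0.987), to Gm4793 (0.984), to the ganglioside synthase St8sia1 (0.968) and to Stox2 (0.966). The Shc3 and Hipk2 lists of 100 genes shared 51 genes. Lamb2, a laminin chain of basement membranes, was the most opposed gene to both, at −0.90 and −0.89. The next most opposed were Gm9747 (−0.87) and the lysyl hydroxylase Plod3 (−0.86) for Shc3, and the clock gene Per1 (−0.87) and Izumo4 (−0.86) for Hipk2.

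Adcy1 was closest to the protein kinase C gene Prkcb (0.977), to the BDNF receptor Ntrk2 (0.971), to Caln1 (0.967), a calmodulin-like protein of neurons, to the presynaptic scaffold Erc2 (0.960) and to the NMDA receptor subunit Grin2b (0.957). Opposed to it were Ddx39b (−0.93), an RNA helicase of mRNA export, 4930516B21Rik (−0.92) and the splicing regulator Ptbp1 (−0.91), which is known to fall as neurons differentiate. Mef2c was closest to the receptor tyrosine kinase Met (0.977), to the mineralocorticoid receptor Nr3c2 (0.970), to Nwd2 (0.960) and to Neto1 (0.959), an auxiliary subunit of glutamate receptors. The neurofilament gene Ina (−0.94), the transcription factor Gata3 (−0.94) and Adgra3 (−0.92) were opposed. The Adcy1 list shared 17 of its 100 genes with Shc3, 7 with Mef2c and 1 with Hipk2, and the Mef2c list shared 0 with Shc3 and 0 with Hipk2.

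The 100 most similar genes were long. Their median span in the annotation was 104 kb for Shc3, 100 kb for Hipk2, 186 kb for Adcy1 and 170 kb for Mef2c, where the median over all 12541 genes with a known span (93.5% of those compared) was 25.2 kb. The 100 most opposed genes had median spans of 14.9, 12.7, 15.6 and 22.9 kb. The 4 genes themselves span 146063, 188820, 115074 and 163063 bases. Span was not used to choose the genes, but similar genes share their profile by construction, so the figures describe the lists and no test was made.

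Of the nearest expressed protein-coding neighbours, only some in *Nipbl+/−* brains passed the test (adjusted *P* below 0.10, edgeR quasi-likelihood test with Benjamini-Hochberg adjustment over all 30552 genes). On either side of Adcy1, Ramp3, at a distance of 385955 bases, stood at −0.43 on the log2 scale (adjusted *P* = 0.0211), and Igfbp3, which encodes an insulin-like growth factor binding protein and lies at 27580 bases, stood at −0.21 (adjusted *P* = 0.0236). Cetn3, 1706862 bases from Mef2c, had −0.12 (adjusted *P* = 0.0879). Neither S1pr3 and Cks2 beside Shc3, nor Clec2l and Tbxas1 beside Hipk2, nor Tmem161b beside Mef2c was called, and no neighbour was called in *Wapl Δ/+* or double-heterozygote brains. S1pr3 lies 592 bases from Shc3 and had *r* = −0.70 with it over the libraries. Tbxas1 overlaps Hipk2 by 12173 bases and had only 24 to 56 counts per library, a mean of 1.27 CPM. The noncoding genes annotated across Hipk2 and Mef2c had no row of their own in the table, and whether reads were counted by strand is not given in the sources used here.

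**Figure D4:**
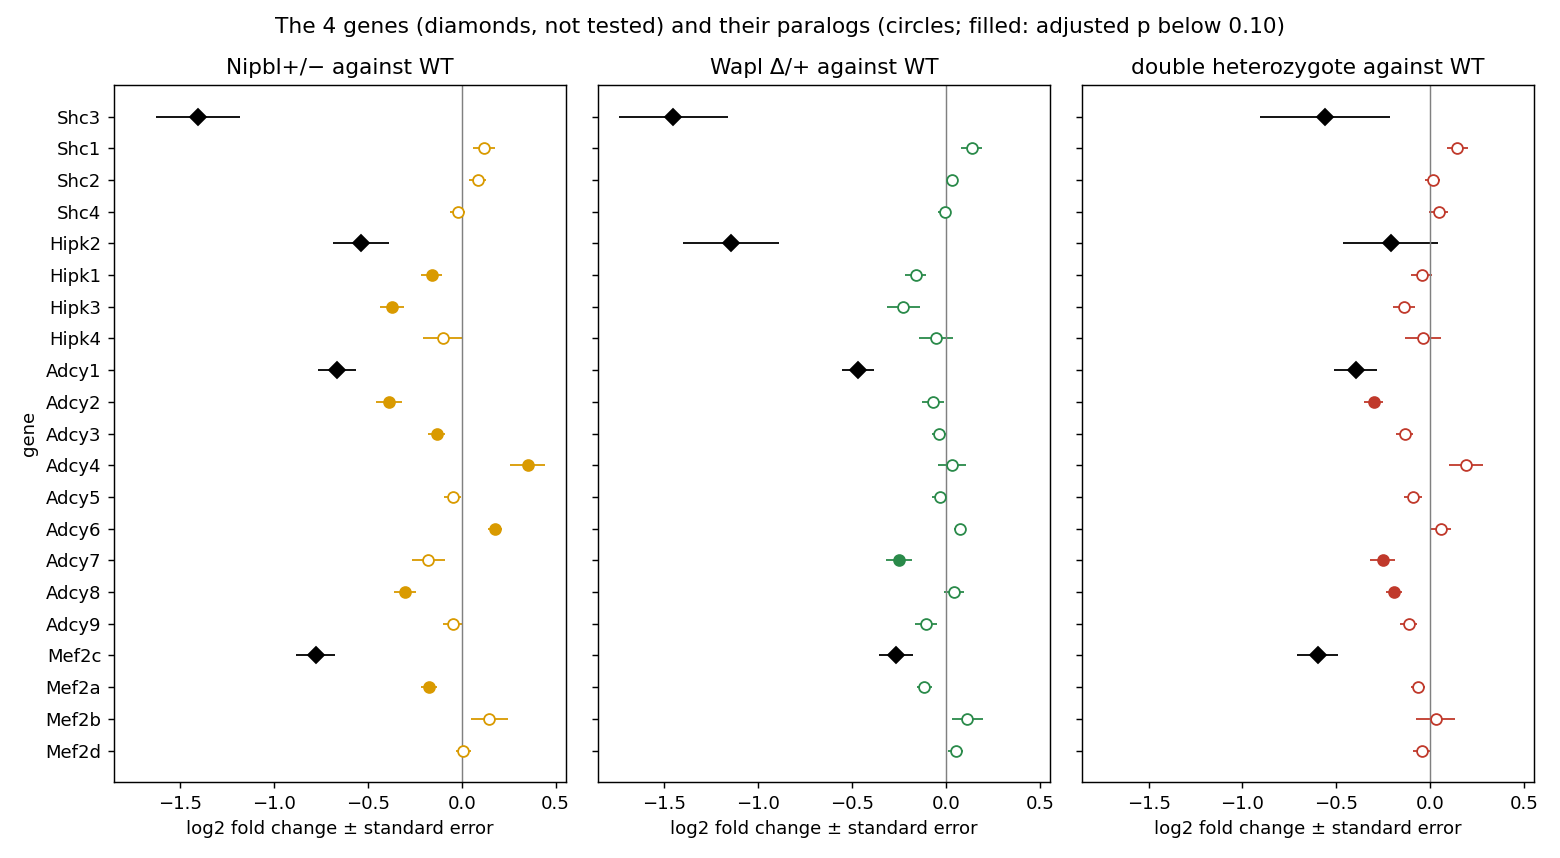
Log2 fold change ± standard error against WT (horizontal axis) of the 4 genes (black diamonds, not tested) and their 17 paralogs (circles, filled where the edgeR adjusted P was below 0.10) in Nipbl+/−, Wapl Δ/+ and double-heterozygote brains. The paralogs lie between −0.39 and 0.35, and Shc3 lies apart from Shc1, Shc2 and Shc4 in each panel.

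The paralogs were listed by family membership and not by the rule for the 4 genes, although earlier results of these data were known when they were listed. In *Nipbl+/−* brains 8 of 17 were called, 6 down-regulated and 2 up-regulated, where 11.2% of all genes tested were called, 6.96% down-regulated and 4.25% up-regulated. The 30552 genes tested included many with few reads, as only 13414 had a mean of at least 5 CPM. No share was computed among genes of like level, so how these counts compare with it is not known. The same limit holds for the pathway and marker counts below. All 3 mutant libraries lay on the called side of the *WT* mean for each paralog called. None of the other Shc adaptors was among them. Shc1, Shc2 and Shc4 had log2 fold changes of 0.12 (SE 0.0588), 0.08 (SE 0.0435) and −0.02 (SE 0.0424), and in no comparison with *WT* was any of them called. The mean of their log2 CPM had *r* = −0.77 with the log2 CPM of Shc3 over the 21 libraries.

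Among the Hipk kinases, Hipk3 fell from 52.1 ± 4.52 CPM (SD, n = 5) in *WT* to 40.5 ± 3.47 CPM (SD, n = 3) in *Nipbl+/−* brains, a log2 fold change of −0.37 (edgeR adjusted *P* = 0.00164, 3 of 3 libraries lower). Hipk1 changed by −0.16 (adjusted *P* = 0.0985 in edgeR), a call that was lost on leaving out *WT* replicate 1, 2 or 5 or *Nipbl+/−* replicate 1. Hipk4, the family member with few reads, had −0.10 and was not called. In *Wapl Δ/+* brains, where Hipk2 was at its lowest, Hipk1 had −0.16 and Hipk3 −0.23 without a call (edgeR adjusted *P* = 0.169 and 0.210).

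The adenylyl cyclases moved in both directions in *Nipbl+/−* brains. Adcy8, which like Adcy1 is stimulated by calcium and calmodulin, fell from 22.3 ± 1.08 CPM (SD, n = 5) to 18.1 ± 1.23 CPM (SD, n = 3), a change of −0.30 (adjusted *P* = 0.00307 in edgeR). Adcy2 fell from 41.3 ± 2.48 to 31.7 ± 4.16 CPM, a change of −0.39 (adjusted *P* = 0.00167 in edgeR), and Adcy3, the cyclase of primary cilia, changed by −0.13 (adjusted *P* = 0.0831). The cyclases with higher levels were Adcy4 (0.35, adjusted *P* = 0.0282) and Adcy6 (0.18, adjusted *P* = 0.00681). Adcy2, Adcy6 and Adcy8 kept their calls whichever library was left out, Adcy4 lost its call without *Nipbl+/−* replicate 1, and Adcy3 lost its call in 6 of 8 such fits.

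In double heterozygotes Adcy2 (−0.30, edgeR adjusted *P* = 0.00451), Adcy8 (−0.19, adjusted *P* = 0.0301) and Adcy7 (−0.25, adjusted *P* = 0.0607) were the 3 of 17 paralogs called, all down-regulated, where 3.28% of all genes were called, 2.46% down-regulated and 0.812% up-regulated. The Adcy8 call was lost without *WT* replicate 1 (adjusted *P* = 0.107 in edgeR) and the Adcy7 call in 7 of 11 fits without a library. In *Wapl Δ/+* brains the only call was Adcy7 (−0.25, adjusted *P* = 0.0907 in edgeR), where 2.22% of all genes were called, 1.45% down-regulated and 0.769% up-regulated, and 8 of 12 fits that left out a library lost it. Adcy8 was the only paralog for which the double heterozygotes differed from the *Wapl Δ/+* group (−0.23, adjusted *P* = 0.0548 in edgeR, where 1.02% of all genes were called and 0.812% were lower), and 6 of 13 such fits lost that call. Of the Mef2 family, Mef2a fell from 102 ± 3.59 CPM (SD, n = 5) to 90.5 ± 5.46 CPM (SD, n = 3) in *Nipbl+/−* brains (−0.17, adjusted *P* = 0.0192 in edgeR), a call lost without *Nipbl+/−* replicate 1 or 3. Mef2b and Mef2d were called in no comparison. No paralog was called in the comparison of double heterozygotes with *Nipbl+/−* brains (0.00655% of all genes called), nor for the interaction (0% of all genes).

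The pathways around the 4 genes were followed with lists of 79 genes in all. In *Nipbl+/−* brains 28 of 79 were called, 21 down-regulated and 7 up-regulated, where 11.2% of all genes were called (6.96% lower, 4.25% higher), and their median log2 fold change was −0.06, beside −0.01 over all genes. The count was 9 of 79 in *Wapl Δ/+* brains, where 2.22% of all genes were called, and 5 of 79 (6.33%) in double heterozygotes, where 3.28% were. Of the mutant libraries, 3 of 3 lay on the called side of the *WT* mean for every call in *Nipbl+/−* brains except Gnal (2 of 3), 7 of 7 in *Wapl Δ/+* brains except Map2k2 and Crebbp (6 of 7), and 6 of 6 in double heterozygotes. Of the 28 calls in *Nipbl+/−* brains 12 survived the loss of any 1 library, none of the 9 in *Wapl Δ/+* brains did, and 1 of the 5 in double heterozygotes did. As for the paralogs, no share was computed among genes of like level.

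Upstream of Shc3, the list of neurotrophins, Trk receptors and the Ras-MAPK cascade had 4 genes down-regulated and 1 up-regulated of 23 in *Nipbl+/−* brains. Of all genes, 6.96% were called lower and 4.25% higher there. Ntrk2 encodes TrkB, the receptor of BDNF, and fell from 324 ± 16.7 CPM (SD, n = 5) to 224 ± 28.7 CPM (SD, n = 3), a log2 fold change of −0.54 (edgeR adjusted *P* = 7.6e-05). It was also called in *Wapl Δ/+* brains (−0.35, adjusted *P* = 0.0381 in edgeR) and in double heterozygotes (−0.37, adjusted *P* = 0.0196), and the *Wapl Δ/+* call was lost without *WT* replicate 1 or 2. As Ntrk2 had one of the profiles most similar to that of Adcy1, it is not independent of the choice of Adcy1. Of the ligands, the neurotrophin-3 gene Ntf3 fell by 0.97 on the log2 scale (adjusted *P* = 0.000554 in edgeR), from 3.01 ± 0.279 to 1.54 ± 0.271 CPM, and Bdnf by 0.32 (adjusted *P* = 0.0618), a call lost in 5 of 8 fits without a library. Ntrk3 had −0.16 (adjusted *P* = 0.0331 in edgeR). The up-regulated gene was the MAP kinase kinase Map2k2 (0.11, adjusted *P* = 0.0837), called in *Wapl Δ/+* brains as well (0.14, adjusted *P* = 0.0941 in edgeR). Grb2, the Sos exchange factors and the Ras genes, which act directly after Shc3, were not called.

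Among all genes in *Nipbl+/−* brains, 4.25% were called up-regulated and 6.96% down-regulated. Of 13 partners and substrates of Hipk2, 4 were up-regulated and none down-regulated in these brains. They were Trp53 (0.15, edgeR adjusted *P* = 0.0481), which encodes p53, its ubiquitin ligase Mdm2 (0.14, adjusted *P* = 0.0536), the corepressor Ctbp1 (0.13, adjusted *P* = 0.0339) and Daxx (0.17, adjusted *P* = 0.0199). Each of these calls was lost without *Nipbl+/−* replicate 1. In *Wapl Δ/+* brains the only call was the acetyltransferase Crebbp (−0.20, adjusted *P* = 0.0574 in edgeR), which stood at −0.03 with low and at −0.32 with high *mt-Nd3*. In double heterozygotes it was Pou4f1 (0.37, adjusted *P* = 0.0415 in edgeR), a transcription factor of sensory and midbrain neurons that Hipk2 binds.

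The cAMP list had the most calls in one direction. In *Nipbl+/−* brains 11 of 26 genes were down-regulated and none was up-regulated, with a median of −0.11, where 6.96% of all genes were down-regulated and 4.25% up-regulated. The largest decreases were those of Pde10a, a phosphodiesterase of striatal neurons (−0.33, edgeR adjusted *P* = 0.00446), the synaptic kinase anchor Akap5 (−0.29, adjusted *P* = 0.00497) and Pde1a, a phosphodiesterase activated by calmodulin (−0.28, adjusted *P* = 0.0239). Among the others were Gnal, Gnai1, Calm2, Prkacb, Pde1c, Pde4d and Creb1, so the called genes include makers, effectors and degraders of cAMP alike. In *Wapl Δ/+* brains 4 of 26 were down-regulated, namely Pde10a (−0.32, adjusted *P* = 0.0381 in edgeR), Pde4d (−0.25, adjusted *P* = 0.0663), Akap5 (−0.24, adjusted *P* = 0.0574) and the G protein subunit Gnal (−0.16, adjusted *P* = 0.0986). In double heterozygotes Akap5 (−0.24, adjusted *P* = 0.0711 in edgeR) and Gnal (−0.17, adjusted *P* = 0.0852) were called. The mean log2 CPM of the list had *r* = 0.830 with Adcy1 and 0.877 with Mef2c, but 0.258 with Hipk2.

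Regulators of Mef2 proteins were called in 7 of 12 cases in *Nipbl+/−* brains. Of all genes 11.2% were called there, 6.96% lower and 4.25% higher, and these shares also stand beside the Mef2 targets below. The kinase Camk4, which activates Mef2-dependent transcription, fell by 0.44 (edgeR adjusted *P* = 0.00159), the anchor Akap6 by 0.29 (adjusted *P* = 0.00189), and the calcineurin subunit Ppp3ca by 0.22 (adjusted *P* = 0.00415). Of the class II deacetylases, which repress Mef2 targets, Hdac7 (0.23, adjusted *P* = 0.00145 in edgeR) and Hdac5 (0.17, adjusted *P* = 0.00657) were up-regulated in every fit without a library, and Hdac4 (−0.12, adjusted *P* = 0.0869) was down-regulated, a call lost in 7 of 8 such fits. In *Wapl Δ/+* brains Hdac7 (0.15, adjusted *P* = 0.0514 in edgeR) and Akap6 (−0.23, adjusted *P* = 0.0503) were called. Among 6 genes that Mef2 is known to control in active neurons, Homer1, a postsynaptic scaffold, and Bdnf were down-regulated in *Nipbl+/−* brains, and Homer1 was also called in double heterozygotes (−0.25 and −0.19, edgeR adjusted *P* = 0.0113 and 0.0383). Arc and Jun were not called. Nr4a1 was lower in double heterozygotes than in *Wapl Δ/+* brains (−0.26, adjusted *P* = 0.0737 in edgeR). It was the 1 call among the 79 pathway genes there (1.27%, beside 1.02% of all genes), and it was lost in 8 of 13 fits without a library.

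Some marker lists of cell types moved with some of the 4 genes, and their part in the levels was not tested. Counts of called markers stand beside 6.96% of all genes called lower and 4.25% higher in *Nipbl+/−*, 1.45% and 0.769% in *Wapl Δ/+*, and 2.46% and 0.812% in double-heterozygote brains. These shares are again over all genes tested and were not computed among genes of like level. No neuronal, progenitor or glial marker was at 0 in any group. Markers of neuronal maturation fell in 8 of 15 cases in *Nipbl+/−*, 1 of 15 in *Wapl Δ/+* (Grin2b, −0.30, edgeR adjusted *P* = 0.0381) and 4 of 15 in double-heterozygote brains. Grin2b had one of the profiles most similar to that of Adcy1, so it is not independent of that choice, and its call in *Wapl Δ/+* brains was lost without *WT* replicate 1 or 2. Leaving out a library also ended the calls of Snap25 in *Nipbl+/−* (4 of 8 fits) and Gria2 in double-heterozygote brains (6 of 11 fits). The summed level of the list was 4068 to 4347 CPM in *WT*, 3439 to 3910 CPM in *Nipbl+/−*, 3600 to 4108 CPM in *Wapl Δ/+* and 3603 to 4023 CPM in double heterozygotes. Their mean log2 CPM had *r* = 0.960 with Mef2c and 0.753 with Adcy1, but 0.353 with Shc3 and 0.0422 with Hipk2. Glial markers fell in 8 of 10 cases in *Nipbl+/−* and 8 of 10 in double-heterozygote brains, among them Pdgfra of oligodendrocyte precursors (−0.60 and −0.40, edgeR adjusted *P* = 3.94e-05 and 0.00594) and Aqp4 of astrocytes (−0.79 and −0.56, adjusted *P* = 0.00415 and 0.0213). None of the 10 was called in *Wapl Δ/+* brains. The calls of S100b and Sox10 in *Nipbl+/−* and of Olig2 in double-heterozygote brains were lost in 1, 3 and 4 of the fits without a library. Their summed level was 601 to 639 CPM in *WT*, 434 to 542 CPM in *Nipbl+/−*, 490 to 656 CPM in *Wapl Δ/+* and 450 to 554 CPM in double heterozygotes, with *r* = 0.885 to Mef2c and 0.137 to Hipk2.

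Of 10 markers of cortical projection neurons, in which Mef2c is expressed, Fezf2 was up-regulated in *Nipbl+/−* brains, at 0.22 (adjusted *P* = 0.0286 in edgeR), a call lost without *Nipbl+/−* replicate 3, and none was called in *Wapl Δ/+* brains. The summed level of the list was 1170 to 1273 CPM in *WT*, 1160 to 1249 CPM in *Nipbl+/−*, 1034 to 1303 CPM in *Wapl Δ/+* and 1082 to 1246 CPM in double heterozygotes, and its *r* with the 4 genes was between −0.01 and 0.0847. The early neuron markers held 1 up-regulated gene of 8 in *Nipbl+/−* (Sox11, 0.23, lost without *Nipbl+/−* replicate 1) and 1 in double-heterozygote brains (Elavl4, 0.14, lost in 7 of 11 fits), and none in *Wapl Δ/+* brains. GABAergic markers were up-regulated in 5 and down-regulated in 1 of 9 cases in *Nipbl+/−* brains, with summed levels of 637 to 672 CPM in *WT* and 671 to 723 CPM in *Nipbl+/−*, and *r* = −0.82 to Adcy1. Of the 5 up-regulated genes Dlx1, Dlx2, Dlx5 and Dlx6 lost their calls without *Nipbl+/−* replicate 1 (adjusted *P* of 0.133 to 0.378 at the highest over all fits in edgeR), and Lhx6 kept its call in every fit. In double heterozygotes Sst alone was lower (−0.19, lost in 6 of 11 fits), and in *Wapl Δ/+* brains none was called. Of 10 progenitor markers, Sox2, Nes and Eomes were higher and Fabp7 was lower in *Nipbl+/−* brains, with none called in the other mutants. The calls of Sox2, Nes and Eomes were lost without *Nipbl+/−* replicate 1, and Nes and Eomes had 2 of 3 libraries on the called side, while Fabp7 kept its call in every fit.

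Other cell types were followed in the same way. Microglial markers fell in 5 of 8 cases in *Nipbl+/−* brains (98.8 to 115 CPM summed in *WT*, 77.7 to 94.4 CPM in *Nipbl+/−*), with Csf1r and C1qb lost in 5 and 1 of 8 fits, in none in *Wapl Δ/+* and in 1, Cx3cr1, in double-heterozygote brains. Of 8 markers of endothelium and meninges, Cdh5 was called in *Nipbl+/−* brains (0.16, edgeR adjusted *P* = 0.0368, lost without *Nipbl+/−* replicate 1), and Cdh5, Col1a1 (0.62, adjusted *P* = 0.0952) and Col1a2 (0.38, adjusted *P* = 0.0891) were called in *Wapl Δ/+* brains, each lost in 9 or 10 of 12 fits without a library. The summed level of this list was 488 to 629 CPM in *WT* and 508 to 873 CPM in *Wapl Δ/+* brains, and its mean log2 CPM had *r* = −0.74, −0.62, −0.60 and −0.33 with Shc3, Hipk2, Adcy1 and Mef2c. No marker of choroid plexus or blood was called in the 3 comparisons with *WT*. Of 5 pituitary markers, Gh was called in *Wapl Δ/+* brains on the strength of single libraries (−7.34, edgeR adjusted *P* = 0.0574, changing to 2.09 when 1 library was left out). The summed level of that list reached 87.3 CPM in *WT*, 2.16 CPM in *Nipbl+/−*, 2.55 CPM in *Wapl Δ/+* and 38.3 CPM in double-heterozygote brains, Prl was at 0 in every *Wapl Δ/+* library, and *r* with the 4 genes was between −0.05 and 0.0538.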

How the data were processed

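RNA was sequenced from whole brains of 21 female mouse embryos at E17.5, after selection of polyadenylated transcripts with oligo(dT). The deposited table holds raw counts of reads per gene and library, which the authors made by trimming with cutadapt 2.4, aligning to GRCm38.p6 with STAR 2.5.3a and counting with featureCounts of Subread 1.6.4. The gene annotation release and the strand setting are not given in the sources used here. Columns were assigned to samples by their names. A further *Nipbl+/−* library that the authors excluded is not analysed here.

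Genes whose normalized counts added up to 10 or more were fitted for each pair of groups with the quasi-likelihood test of edgeR 4.0.16 in R 4.3.3, with TMM normalization and Benjamini-Hochberg adjustment over all genes tested (called below 0.10). The interaction was fitted over all 4 groups. DESeq2 1.42.0 served for alternatives. Correlations used log2 CPM with a prior count of 2. The edgeR fit of each mutant group against *WT* was first tested on simulated counts, and the other fits were not. All tests are two-sided. The labels do not give the litter of an embryo, so *P*-values measure the spread between these embryos, litters included. No replicates agreed within sampling noise, so each library counted once.

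The 4 genes, their 17 paralogs and the pathway, marker and neighbour lists were chosen with earlier results of these data known. The 4 genes were always described, paralogs, nearest neighbours of 1 CPM or more and the 3 largest rises and 3 largest falls called in each pathway list were named, and, of each gene, the 5 most alike and 3 most opposed genes were named from those with a mean of at least 5 CPM. Ntrk3, Ctbp1, Hdac4, the other called cAMP genes and the pathway genes given as not called were named after their values were seen. Results of 4 list genes and similar genes are not reported here. Spans, positions and neighbours came from RefSeq GRCm38.p6, matched by symbol. Alternatives were an adjusted *P* of 0.05, DESeq2 tests and size factors, other filters, a single fit of all groups, a replicate block, each *mt-Nd3* set (divided at 20 counts) and leaving out each library.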

Additional observations from a re-analysis of the deposited data

Results flagged for a closer look

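The 4 genes were chosen for their spread between these libraries, so libraries that stand apart from their group are described here and no chance rate applies to them. The gap between the most extreme library and the next was taken as a share of the group's range in log2 CPM, in the 12 combinations of a gene with a group of more than 3 libraries, which share libraries between the genes. It passed Dixon's limit for a group of that size, used here only to pick what to list, in 3 of them. *Wapl Δ/+* replicate 2 stood apart for Shc3, at 14.4 CPM where the next library had 4.36 CPM (a gap of 0.778 of the range). The same library stood apart for Hipk2, at 62.3 CPM where the next had 25.5 CPM (0.577 of the range). For Adcy1 it was *WT* replicate 3, at 343 CPM where the next had 401 CPM (0.767 of the range).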

How the results depend on the processing

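Of the fold changes of the 4 genes, the counts of calls and the correlations, 272 values under alternatives other than leaving out a library kept their direction and size, 65 moved and 1 reversed; the causes were not tested. Of the single calls of paralogs and pathway genes, 301 held and 111 lost significance without a change of direction. Counts below are all genes, paralogs and pathway genes. *Nipbl+/−* against *WT* (3422, 8, 28) gave 1658, 5 and 10 in a single fit of all groups, and 1881 genes and 14 pathway genes with low *mt-Nd3* alone. *Wapl Δ/+* against *WT* (677, 1, 9) gave 181, 0 and 2 at an adjusted *P* of 0.05, 1446, 2 and 17 with DESeq2, 7, 0 and 0 in a single fit, 47, 0 and 1 with low and 278, 0 and 4 with high *mt-Nd3*, where Hipk2 changed by −0.39 in the low set. Double heterozygotes against *WT* (1001, 3, 5) gave 547 genes and 3 pathway genes at 0.05, 10 pathway genes with DESeq2, 8 without a filter, 602 and 3 in a single fit, 1 paralog with low *mt-Nd3*, and 1, 0 and 0 with high *mt-Nd3*. Against *Nipbl+/−* (2 genes) they gave 1 at 0.05, 5 with DESeq2 and 1 with low *mt-Nd3*. Against *Wapl Δ/+* (311, 1, 1) they gave 171, 0 and 0 at 0.05, 626 genes and 2 paralogs with DESeq2, 2 paralogs with DESeq2 size factors or without a filter, 576 and 2 in a single fit, 24, 0 and 0 with low and 29, 0 and 0 with high *mt-Nd3*; the low set gave 0.0082 for Shc3, 0.22 for Hipk2 and −0.015 for Adcy1, whose direction also reversed without double-heterozygote replicate 3 (−0.028, up to 0.14 without *Wapl Δ/+* replicate 2). The interaction gave 793, 2 and 9 with DESeq2 and 0.75 for Hipk2 with low *mt-Nd3*.

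Replicate numbers were not taken to pair the libraries, since the correlations of same-numbered deviations ran from −0.21 to 0.30 and none of the 5 comparisons had every pair above 0.1. All 3 pairs of double heterozygotes with *Nipbl+/−* were positive (0.0574 to 0.228), and each other comparison held both signs. This limit cannot show whether libraries were paired in part. With the replicate number as a block the counts were 1893, 5 and 15 in *Nipbl+/−* and 1991, 4 and 20 in *Wapl Δ/+* against *WT*, 535 genes and 2 pathway genes in double heterozygotes against *WT*, 59 genes against *Nipbl+/−* and 0 paralogs against *Wapl Δ/+*.

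Leaving out single libraries gave 1828 (without *Nipbl+/−* replicate 1) to 4788 genes, 4 to 9 paralogs and 16 to 41 pathway genes in *Nipbl+/−* brains, 9 (without *WT* replicate 2) to 1534 (without *Wapl Δ/+* replicate 2), 0 to 2 and 0 to 14 in *Wapl Δ/+* brains, and 454 (without *WT* replicate 4) to 2504 (without double-heterozygote replicate 5), 1 to 5 and 1 to 20 in double heterozygotes. Against *Nipbl+/−* the range was 1 to 2 genes, against *Wapl Δ/+* 163 to 449 genes, 0 to 2 paralogs and 0 to 2 pathway genes, and for the interaction 0 to 945 (without double-heterozygote replicate 6), 0 to 2 and 0 to 7.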
